A study of Mus musculus with 9 samples.

Results

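A set of 10 genes that mark macrophages or are made largely by them was followed through neck skin of mice with allergic contact dermatitis: Adgre1, Cd68, Csf1r, Mrc1, Cd163, the complement genes C1qa, C1qb and C1qc, and the IgG receptor genes Fcgr1 and Fcgr4. A gene was taken where the array annotation gave a transcript cluster (the array's unit of measurement) exactly 1 symbol, and all 10 were found among 30142 such genes, each with 1 cluster. The arrays, 9 in all, were 3 of healthy control skin, 3 of skin treated with oxazolone, a synthetic hapten, and 3 of skin treated with urushiol, the oil that makes poison ivy allergenic. All mice were male C57BL/6, an inbred strain, aged 6 to 8 weeks, and carried no engineered allele according to the labels. For either allergen, 2.0% was put on the abdomen to sensitise, and 5 days later the nape received 0.5% in 40 µl acetone for the first of 5 challenges, the last on day 8. Skin was taken 4 hours after that challenge. The sources do not say if controls were shaved or received acetone. The titles call the arrays of a group biological replicates, without saying that each is 1 mouse.

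Macrophages of healthy skin live in the dermis, depend on signalling through the CSF1 receptor and clear debris through scavenger receptors and lectins. In dermatitis, blood monocytes enter the skin and become macrophages, and their surface receptors shift with the cytokines they meet. C1q is the recognition unit of the classical complement pathway, is built from the A, B and C chains, and is made mainly by macrophages and immature dendritic cells. Fc receptors bind the constant part of antibodies and let myeloid cells take up or attack what antibodies have coated.

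The 10 genes did not move as a block. In oxazolone skin Fcgr1 and Fcgr4 rose, by 2.18 ± 0.14 and 3.65 ± 0.56 log2 units (difference ± SE, n = 3 against 3). In urushiol skin Fcgr1 rose by 1.06 ± 0.14 and Mrc1 by 1.13 ± 0.27. Adgre1, Cd68, Csf1r, Cd163 and the 3 C1q genes did not pass the test in either comparison. No member passed between the allergens. Values are log2 expression as deposited, and a difference of 1 would be a 2-fold change if the scale were a plain log2. It runs from 2.20 to 19.93, past the limit of a 16-bit scanner, and no source used here gives the reason, so sizes are given on that scale and not as folds. Passing the test means an adjusted p below 0.05 in limma, with Benjamini-Hochberg adjustment over all 30142 genes. In whole skin, more cells of a type and more RNA per cell cannot be told apart. Since probes differ in brightness, levels of different genes were not ranked.

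These counts stand beside a wide response of the whole skin. In oxazolone against control, 2 of 10 members were called higher and 0 lower, while 9.63% of all genes were called higher and 6.92% lower. In urushiol against control the members were again 2 higher and 0 lower, beside 9.96% and 6.43% of all genes. An unadjusted p under 0.05 was reached by 4 and 5 of the 10 members and, between the allergens, by 3, beside 10277, 9695 and 1772 of the 30142 genes. In urushiol against oxazolone 0 members were called, against 0.00664% of all genes higher (2 genes) and 0.00995% lower (3 genes). The median member differed by 0.32 in oxazolone and 0.91 in urushiol, and the median gene by 0.06 and 0.04. Array ranges of the groups did not overlap for 2 members in oxazolone, both above control, where 32.8% of all genes did not overlap. In urushiol 5 members lay wholly above control (Cd68, Mrc1, Cd163, Fcgr1 and Fcgr4), beside 32.9% of all genes.

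**Figure D1:**
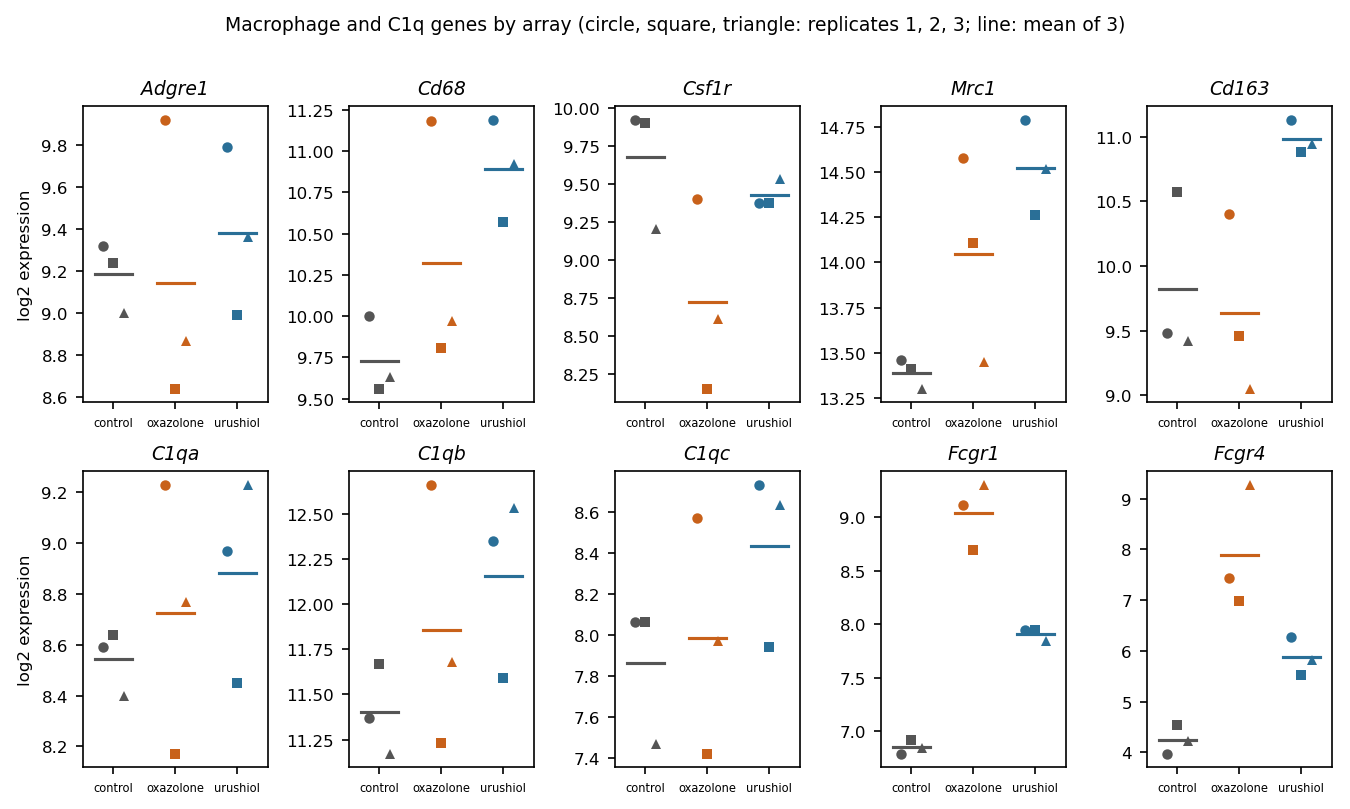
Log2 expression of the 10 genes (vertical axes, each on its own range) on the 3 control, 3 oxazolone and 3 urushiol arrays, with a line at each group mean. Fcgr1 and Fcgr4 sit above control on every allergen array and highest in oxazolone, whereas Adgre1 and the C1q genes overlap between groups.

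**Figure D2:**
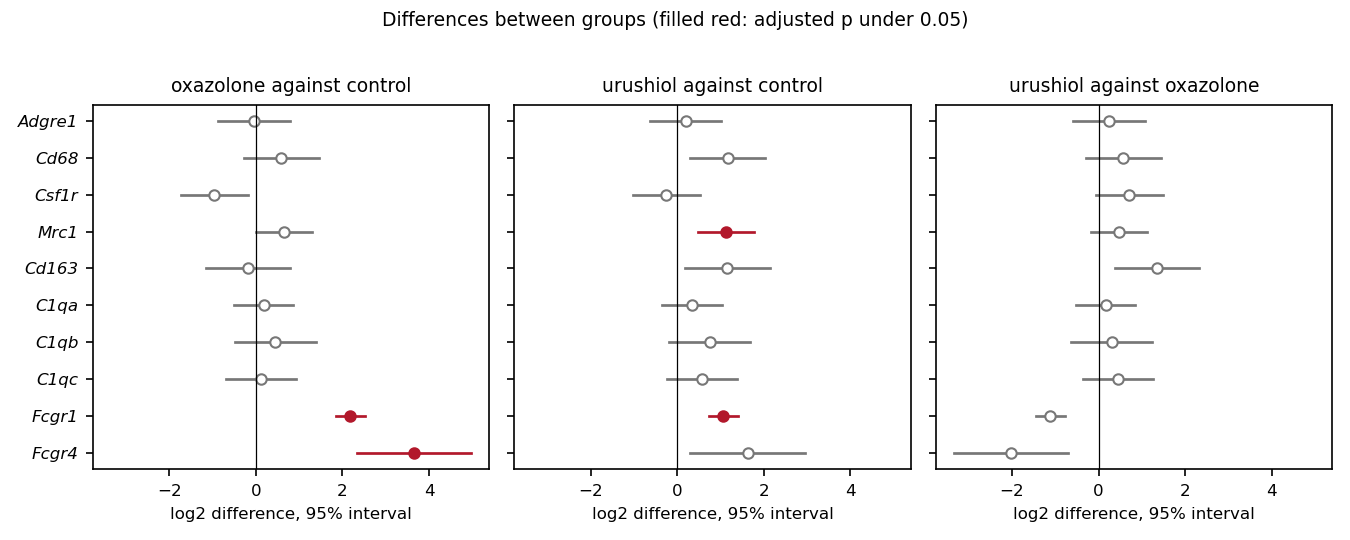
Log2 differences between groups with limma's 95% intervals (horizontal axis) for the 10 genes (rows) in the 3 comparisons, filled where the adjusted p is below 0.05. Filled points are Fcgr1 and Fcgr4 in oxazolone and Fcgr1 and Mrc1 in urushiol, and the panel of urushiol against oxazolone has none.

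Control array 3 was unlike the other controls: it correlated with them at 0.979 and 0.978 over all genes, and they with each other at 0.995. The mean of 13 hair follicle genes was 11.14 on it against 5.98 and 6.16 on the other controls, and 10.01 to 13.04 on the allergen arrays. Skeletal muscle genes, 14 of which were measured, averaged 15.04 on it, 17.53 and 17.47 on the other controls, 6.83 to 8.71 in oxazolone and 10.85 to 11.64 in urushiol. Genes of tissue other than dermis thus differed between arrays, and their part in the members' values was not tested. Every member but Fcgr4 lay above its array's median over all clusters, 5.53 to 5.64, on all 9 arrays, and Fcgr4 on 5. Without detection calls this does not establish that a gene was expressed. Without control array 3, Fcgr1 and Fcgr4 kept their calls in oxazolone (differences 2.18 and 3.64) and Fcgr1 in urushiol (1.06). Mrc1 in urushiol then missed the threshold (1.09, limma adjusted p = 0.0576), and Csf1r became a called fall in oxazolone (-1.19, limma adjusted p = 0.0439). Leaving out this array moved the calls over all genes from 2904 higher and 2085 lower to 4749 and 3270 in oxazolone. In urushiol they moved from 3003 and 1939 to 4566 and 3089. Counts of list genes without this array stand beside those.

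The Fc receptors gave the clearest change. Fcgr1 encodes CD64, the high-affinity receptor for IgG, and is induced by interferon-gamma in myeloid cells. It stood at 6.79, 6.92 and 6.85 on the control arrays, at 9.11, 8.69 and 9.30 in oxazolone and at 7.95, 7.95 and 7.84 in urushiol. The 3 groups formed separate bands, with control lowest, urushiol between and oxazolone highest. Limma gave an adjusted p of 0.000521 for oxazolone against control and 0.00498 for urushiol against control, and both calls held without any one array and under every other setting tried. The difference between allergens was -1.12 ± 0.14 (95% interval -1.46 to -0.78) with an adjusted p of 0.0991 in limma, so it did not pass. It did pass without oxazolone array 2 (-1.29, limma adjusted p = 0.0108).

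Fcgr4 encodes an activating IgG receptor of mouse monocytes, macrophages and neutrophils. It read 3.97, 4.55 and 4.22 in control skin, 7.44, 6.98 and 9.27 in oxazolone and 6.28, 5.53 and 5.82 in urushiol. Again no array of one group reached into another, and oxazolone array 3 was far above the other oxazolone arrays. The rise in oxazolone had an adjusted p of 0.00827 in limma and held in every setting. In urushiol the difference was 1.63 ± 0.56 with an adjusted p of 0.0933 in limma. That value passed without oxazolone array 3 (limma adjusted p = 0.0146), an array that enters it only through the shared estimate of spread. Between allergens the difference was -2.02 ± 0.56 (95% interval -3.34 to -0.70), adjusted p = 0.507 in limma. For the members compared between allergens, array ranges were apart for 3 (Fcgr1 and Fcgr4 below, Cd163 above), beside 9.74% of all genes.

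The 250 bases before the start of each gene are shown for both receptors, because they had the largest differences among the members in oxazolone. The sequences come from the RefSeq promoter table for GRCm38.p6 and are written 5′ to 3′ on the gene's own strand. Windows were taken for 7 of the 10 members (not Adgre1, Csf1r or C1qa). The search left out the chromosome that carries Csf1r, so the lack of a Csf1r window does not show that the table has none. Capitals mark matches on either strand to GAAANNGAAA, a core of the interferon-stimulated response element, to GAGGAA, a purine-rich core bound by PU.1, the myeloid lineage factor, or to TGACTCA, an AP-1 site. The motifs were chosen with the members' values known. Fcgr1 lies at chr3:96293970-96294219 on the minus strand and Fcgr4 at chr1:171018676-171018925 on the plus strand.
Fcgr1: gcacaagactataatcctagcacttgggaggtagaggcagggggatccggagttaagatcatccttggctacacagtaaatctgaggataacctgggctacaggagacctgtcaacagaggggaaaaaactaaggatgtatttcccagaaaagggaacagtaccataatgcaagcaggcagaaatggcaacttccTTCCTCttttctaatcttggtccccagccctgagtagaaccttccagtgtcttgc
Fcgr4: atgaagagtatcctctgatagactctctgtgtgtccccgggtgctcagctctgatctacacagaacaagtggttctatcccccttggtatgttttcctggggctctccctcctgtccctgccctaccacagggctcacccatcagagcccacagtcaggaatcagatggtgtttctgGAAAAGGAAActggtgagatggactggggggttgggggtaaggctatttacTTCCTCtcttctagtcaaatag

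The Fcgr1 window held a reverse PU.1 core from 55 to 50 bases before the start. The Fcgr4 window held GAAAAGGAAA from 73 to 64 bases before the start and a reverse PU.1 core from 22 to 17. Over 27025 windows of this table, cut in the same way, 3.04% held the response element core, 23.1% the PU.1 core and 4.43% the AP-1 site. A match describes letters and not binding.

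Part of the rest of the family changed as well. Of 11 other Fc receptor genes measured, 3 rose and 1 fell in oxazolone and 3 rose and 0 fell in urushiol, with medians of 0.02 and 0.03, and the other 7 and 8 did not pass. Without control array 3, 2 fell in oxazolone, where calls over all genes were also more numerous. Fcgr2b, the inhibitory IgG receptor, read 9.22, 9.44 and 9.08 in control, 11.44, 10.86 and 11.01 in oxazolone and 11.32, 10.80 and 10.82 in urushiol. Its rise of 1.86 ± 0.20 in oxazolone (limma adjusted p = 0.00246) was close in size to that of 1.73 ± 0.20 in urushiol (limma adjusted p = 0.00301). The activating receptor gene Fcgr3 rose by 1.66 ± 0.23 and 1.25 ± 0.23, with limma adjusted p values of 0.00528 and 0.0132. Fcgr2b, Fcgr4 and Fcgr3 are neighbours in the mouse genome and similar in sequence, so probes of one may partly read another. Trim21, the cytosolic antibody receptor, rose in oxazolone by 1.87 ± 0.33 (limma adjusted p = 0.0126), with 8.24, 7.84 and 9.26 there against 6.71, 6.59 and 6.43 in control. Urushiol values of Trim21, 6.14, 6.33 and 6.38, lay just under control. Fcer1a, the IgE-binding chain of mast cells, rose in urushiol by 1.49 ± 0.37 (limma adjusted p = 0.0378), a call lost without any of 8 arrays (up to 0.124). Fcgrt, the neonatal Fc receptor that recycles IgG, fell by 1.38 ± 0.33 in oxazolone (limma adjusted p = 0.0321), and that call was lost without any of 7 arrays (up to 0.106).

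Neutrophils also carry Fcgr4 and Fcgr3. Of 12 neutrophil genes 8 rose in either comparison, and their mean went from 5.82 to 6.11 in control to 8.76 to 9.28 in oxazolone and 8.85 to 9.54 in urushiol. S100a8 and S100a9 moved this mean most. Their group means were 6.64 and 7.06 in control, 15.45 and 15.29 in oxazolone and 17.22 and 17.04 in urushiol. The part of other cells in the values of S100a8 and S100a9 was not tested. Ly6g, Ltf, Camp and Ngp did not pass in either comparison. The part of neutrophils in the Fc receptor values was not tested.

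Both scavenger receptors had their highest group mean in urushiol. Mrc1 encodes CD206, the mannose receptor, which takes up glycoproteins and marks many dermal macrophages. Its values were 13.46, 13.41 and 13.30 in control, 14.58, 14.11 and 13.45 in oxazolone and 14.79, 14.26 and 14.52 in urushiol. Each urushiol array was above each control, and oxazolone array 3 fell within the controls. The rise in urushiol had an adjusted p of 0.034 in limma, and the difference in oxazolone was 0.66 ± 0.27 with 0.141. Between allergens the difference was 0.48 (95% interval -0.17 to 1.12). The urushiol call was lost after quantile renormalisation (0.66, limma adjusted p = 0.127) and without any of 7 arrays (control 1, 2 or 3, oxazolone 2, urushiol 1, 2 or 3), where limma's adjusted p ranged from 0.0545 to 0.112. Without oxazolone array 3 the oxazolone difference passed (0.96, limma adjusted p = 0.0395).

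Cd163 encodes the receptor that clears haemoglobin bound to haptoglobin. It was 9.48, 10.57 and 9.42 in control, 10.40, 9.46 and 9.05 in oxazolone and 11.13, 10.88 and 10.94 in urushiol. All urushiol arrays were above all others, and control array 2 was more than a unit above the other controls. The difference was 1.16 ± 0.41 for urushiol against control and 1.35 ± 0.41 (95% interval 0.37 to 2.32) for urushiol against oxazolone, with adjusted p values of 0.102 and 0.593 in limma. Oxazolone differed from control by -0.19 ± 0.41. Neither difference passed in any setting tried.

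The Mrc1 window is shown beside these values, at chr2:14229164-14229413 on the plus strand, with the capitals as above.
Mrc1: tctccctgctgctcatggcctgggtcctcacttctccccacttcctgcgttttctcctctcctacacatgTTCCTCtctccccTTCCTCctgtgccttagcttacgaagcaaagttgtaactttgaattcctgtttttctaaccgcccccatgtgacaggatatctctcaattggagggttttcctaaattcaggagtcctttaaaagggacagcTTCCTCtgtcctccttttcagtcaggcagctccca
It held 3 reverse PU.1 cores, from 180 to 175, 167 to 162 and 35 to 30 bases before the start, and none of the other motifs. The Cd163 window held no match to any of the 3 motifs.

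Neither Adgre1 nor Csf1r, the lineage genes, passed the test. Adgre1, the adhesion receptor used as the standard mouse macrophage marker, read 9.32, 9.24 and 9.0 in control, 9.92, 8.64 and 8.87 in oxazolone and 9.79, 8.99 and 9.36 in urushiol. The groups overlapped throughout, with differences of -0.04 ± 0.35 (95% interval -0.87 to 0.78) and 0.19 ± 0.35 (-0.63 to 1.02). These intervals leave room for a change of most of a log2 unit in either direction. Csf1r, the receptor for CSF1 and IL-34, was 9.92, 9.90 and 9.20 in control, 9.40, 8.15 and 8.61 in oxazolone and 9.37, 9.37 and 9.53 in urushiol. Oxazolone array 1 and control array 3 made its groups overlap. The oxazolone difference of -0.95 ± 0.33 had an adjusted p of 0.0892 in limma and passed without oxazolone array 1 (-1.29, limma adjusted p = 0.0366), without control array 3, as given above, and with array weights (-1.08, limma adjusted p = 0.0377). In urushiol it differed by -0.25 ± 0.33.

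Cd68, a glycoprotein of endosomes and lysosomes that increases with phagocytic activity, read 10, 9.56 and 9.63 in control, 11.18, 9.81 and 9.97 in oxazolone and 11.19, 10.57 and 10.92 in urushiol. Every urushiol array was above every control, while only oxazolone array 1 stood clear of them. The difference in urushiol was 1.16 ± 0.37 with an adjusted p of 0.0729 in limma, and it passed without oxazolone array 1 (limma adjusted p = 0.0176). In oxazolone it was 0.59 ± 0.37.

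The 3 C1q genes lie side by side in the mouse genome and their products form one protein. C1qb, the B chain, read 11.37, 11.67 and 11.17 in control, 12.66, 11.23 and 11.68 in oxazolone and 12.35, 11.59 and 12.53 in urushiol. C1qa, the A chain, read 8.59, 8.64 and 8.40, then 9.23, 8.17 and 8.77, then 8.97, 8.45 and 9.23 in the same order. C1qc, the C chain, read 8.06, 8.06 and 7.47, then 8.57, 7.42 and 7.97, then 8.73, 7.94 and 8.63. In all 3 genes oxazolone array 2 and urushiol array 2 were the lowest of their groups and lay within or under the control range. Differences were 0.18 ± 0.29, 0.45 ± 0.40 and 0.12 ± 0.34 for C1qa, C1qb and C1qc in oxazolone and 0.34 ± 0.29, 0.75 ± 0.40 and 0.57 ± 0.34 in urushiol. Limma's adjusted p values lay between 0.462 and 0.836 in oxazolone and between 0.245 and 0.483 in urushiol. The widest upper bound of these 95% intervals was that of C1qb in urushiol, 1.69, so a rise of that size was not excluded by 3 arrays a group. The mean of the 3 chains was 9.34, 9.46 and 9.01 in control, 10.15, 8.94 and 9.47 in oxazolone and 10.02, 9.33 and 10.13 in urushiol, which differs from control by 0.25 and 0.55.

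The C1qb window, shown as the promoter of a member that did not pass, lies at chr4:136886201-136886450 on the minus strand.
C1qb: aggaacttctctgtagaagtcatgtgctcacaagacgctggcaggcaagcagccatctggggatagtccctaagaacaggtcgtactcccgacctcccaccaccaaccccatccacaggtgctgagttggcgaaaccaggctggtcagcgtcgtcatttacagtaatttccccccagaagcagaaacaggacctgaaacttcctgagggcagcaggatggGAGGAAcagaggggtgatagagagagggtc
It held 1 PU.1 core, from 30 to 25 bases before the start. The C1qc window held 1 as well, and the Cd68 window 1 with 2 AP-1 sites.

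Most members varied together between arrays of a group. On oxazolone arrays 1, 2 and 3, 9, 1 and 3 of the 10 members exceeded their group mean, with mean deviations of 0.51, -0.47 and -0.04. On the urushiol arrays the counts were 9, 1 and 5, and on the control arrays 6, 9 and 0. Fcgr4 departed from most members on oxazolone arrays 1 and 3, with deviations of -0.46 and 1.37. The share of all genes above their group mean was not counted. Oxazolone array 2, low in most members, had the highest hair follicle mean, 13.04 against 10.59 and 11.42, and the lowest endothelial mean, 7.51 against 8.66 and 7.89. The part of tissue makeup in these shared shifts was not tested.

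Because arrays shifted together, each member was also read against Adgre1 on the same array, as a description with no test. Relative to Adgre1, 5 of the other 9 members lay wholly above control in oxazolone (Cd68, Mrc1, C1qb, Fcgr1 and Fcgr4) and Csf1r wholly below, where 8.91% of all genes did not overlap. In urushiol 7 lay above, all but Csf1r and C1qa, beside 16% of all genes. Subtraction lends Adgre1's spread to genes that do not vary with it, and removes spread from genes that do, as for Cd68 below. Members mostly varied together, so the shares of all genes are not a like baseline for them. Cd68 minus Adgre1 was 0.68, 0.32 and 0.63 in control, 1.26, 1.17 and 1.10 in oxazolone and 1.40, 1.58 and 1.56 in urushiol. These are separate bands, tighter within groups than Cd68 itself. Csf1r minus Adgre1 was 0.60, 0.66 and 0.20 in control, -0.52, -0.49 and -0.26 in oxazolone and -0.42, 0.38 and 0.17 in urushiol, so it was lower than control on each oxazolone array. Mrc1 minus Adgre1 was 4.14, 4.17 and 4.30 in control, 4.66, 5.47 and 4.58 in oxazolone and 5.00, 5.27 and 5.16 in urushiol, above control on each allergen array. C1qb minus Adgre1 was 2.05, 2.43 and 2.17, then 2.74, 2.59 and 2.81, then 2.56, 2.60 and 3.17. C1qa minus Adgre1 overlapped in all groups, from -0.73 to -0.60 in control and -0.82 to -0.10 in the allergens. For Cd163 the separation of urushiol from control was as small as 1.34 against 1.33.

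**Figure D3:**
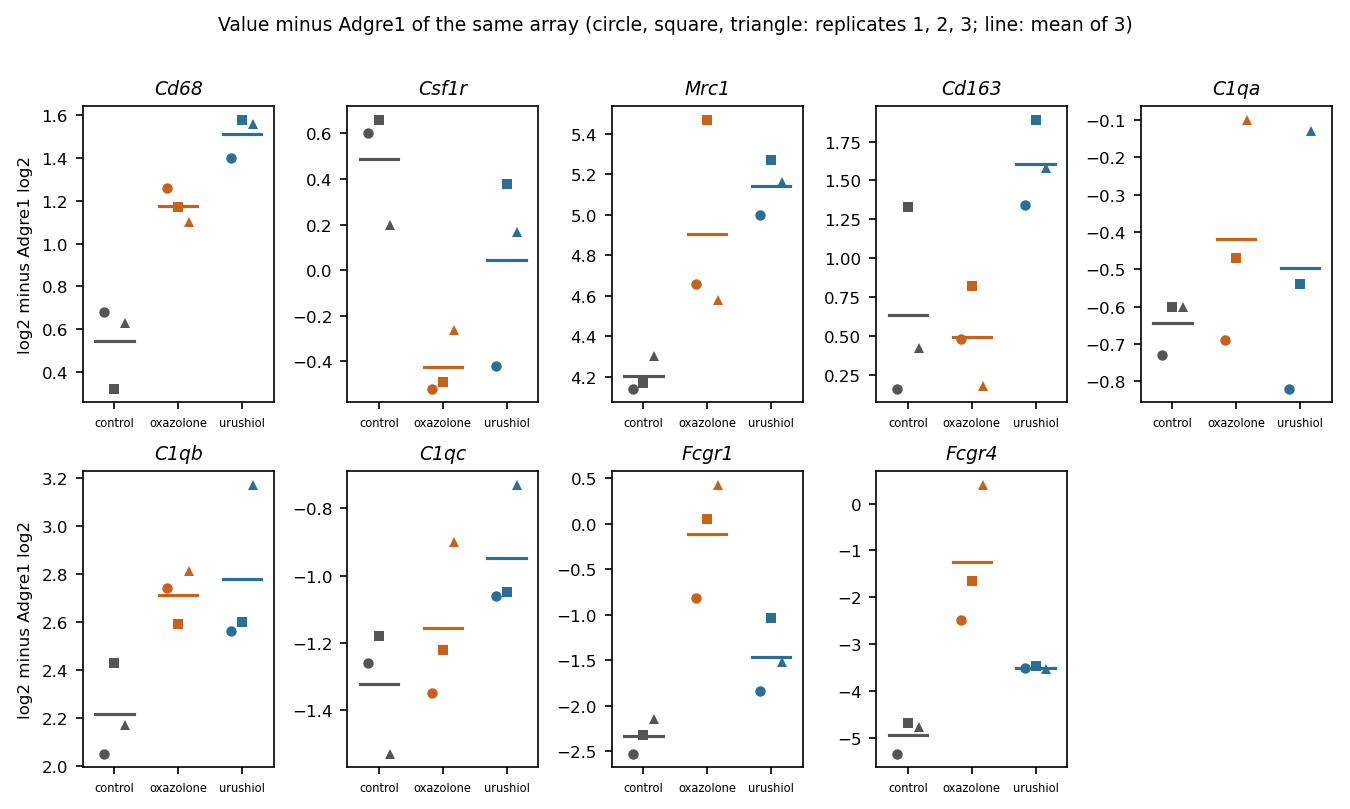
Log2 value of each of 9 genes minus that of Adgre1 on the same array (vertical axes) in control, oxazolone and urushiol skin, with a line at each group mean. Cd68 lies at 0.32 to 0.68 in control, 1.10 to 1.26 in oxazolone and 1.40 to 1.58 in urushiol, while C1qa overlaps in all groups.

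The genes around the members were read from 10 lists that hold 181 symbols, 166 of them measured. Together they gave 39 genes higher and 17 lower in oxazolone (median 0.06) and 25 higher and 17 lower in urushiol (median 0.04), close to the medians of all genes. Over all genes, 9.63% rose and 6.92% fell in oxazolone, and 9.96% rose and 6.43% fell in urushiol. The counts of each list stand beside these shares. Between the allergens 0 of the 166 passed in limma, 27 had an unadjusted p under 0.05 (1772 of all 30142 genes), and array ranges were apart for 24 with urushiol below and 6 with urushiol above (1323 and 1613 of all genes). The comparisons with control share the control arrays, so their values are set side by side only.

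Other genes of resident macrophages gave calls in both directions. Of 21 measured, 2 rose and 1 fell in oxazolone (median -0.16), and 3 rose and 2 fell in urushiol (median 0.01). Gas6, a bridging protein for uptake of dying cells, fell, with differences of -2.78 ± 0.25 in oxazolone and -2.22 ± 0.25 in urushiol (limma adjusted p = 0.00143 and 0.00291). Its control values of 12.78, 12.93 and 12.27 lay above 9.63 to 10.05 in oxazolone and 10.03 to 10.86 in urushiol. Tyrobp, the adaptor that signals for many activating myeloid receptors, rose by 1.76 ± 0.33 and 1.71 ± 0.33 (limma adjusted p = 0.0156 and 0.0166). Without control array 1 its adjusted p in oxazolone was 0.0501, and its urushiol call needed both control arrays 1 and 2 (up to 0.0511 without either). Ms4a7, a membrane protein of macrophages, rose by 1.96 ± 0.53 and 2.35 ± 0.53 (limma adjusted p = 0.0481 and 0.0284), calls lost without any of 8 and 5 arrays (up to 0.127 and 0.0908). Stab1, a scavenger receptor, rose in urushiol by 1.38 ± 0.25 (limma adjusted p = 0.0133; up to 0.0507 without control array 1 or urushiol array 3). Timd4, an uptake receptor named here to complete the count, fell in urushiol by 0.86 ± 0.22. Without control array 3 the list had 1 rise and 2 falls in oxazolone and 3 and 2 in urushiol.

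Genes of monocytes and newly recruited macrophages rose in part. Of 16 measured, 8 rose and 0 fell in oxazolone (median 1.44), and 6 rose and 0 fell in urushiol (median 0.84). The list's array means ran from 9.08 to 9.28 in control, 10.78 to 11.43 in oxazolone and 10.55 to 10.81 in urushiol. Clec4d and Clec4e, lectin receptors for microbial glycolipids, rose by 5.00 ± 0.48 and 3.28 ± 0.36 in oxazolone and by 4.78 ± 0.48 and 3.14 ± 0.36 in urushiol. Clec4d read 5.42, 5.44 and 5.62 in control and at least 9.46 on every allergen array. Neutrophils carry Clec4d, Clec4e and Cd14 too, and their genes rose on the same arrays, as given above. The part of neutrophils in these values was not tested. Ms4a4c, a membrane protein of activated monocytes, rose by 3.57 ± 0.27 in oxazolone and 1.76 ± 0.27 in urushiol, and Cd14, the lipopolysaccharide co-receptor, by 2.84 ± 0.51 and 2.96 ± 0.51. Fabp5, a fatty acid carrier that keratinocytes also make, rose by 4.82 ± 0.45 and 5.36 ± 0.45. Keratinocyte genes averaged 14.63 to 15.39 in control and 15.51 to 16.18 on the allergen arrays, and their part in Fabp5 was not tested. Neither Ly6c2 nor Ccr2, which define classical monocytes, passed: Ly6c2 differed by 0.36 ± 0.28 and -0.33 ± 0.28, Ccr2 by 1.16 ± 0.39 and 0.51 ± 0.39.

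Ligands of the CSF1 receptor fell where they passed the test. Il34, a ligand of the CSF1 receptor made by keratinocytes, read 8.26, 8.59 and 7.97 in control, 6.45, 6.22 and 6.70 in oxazolone and 6.74, 6.77 and 6.90 in urushiol. It fell, with differences of -1.82 ± 0.18 and -1.47 ± 0.18 (limma adjusted p = 0.00174 and 0.00337), with every allergen array below every control. Csf1, the other ligand, fell in urushiol by 0.73 ± 0.13 (limma adjusted p = 0.0128; 0.0507 without urushiol array 1) and differed in oxazolone by -0.30 ± 0.13 (limma adjusted p = 0.149). Flt3l, a growth factor of dendritic cells, fell, with differences of -0.61 ± 0.06 and -0.88 ± 0.06. Csf3r, the G-CSF receptor of neutrophils, which also stands in the neutrophil list, rose by 2.49 ± 0.27 and 2.65 ± 0.27. Kitl, the mast cell growth factor, rose by 0.92 ± 0.23 in oxazolone (limma adjusted p = 0.0364), a call lost without any of 7 arrays (up to 0.119). In all, 4 of 8 rose and 2 fell in oxazolone, and 1 rose and 3 fell in urushiol, where 2 rose without control array 3.

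Complement outside C1q was read as activation proteins and as regulators and receptors. Of 20 measured activation proteins, 1 rose and 2 fell in either comparison (medians 0.00 and 0.03), beside the shares of all genes given above. C7, a part of the membrane attack complex, read 15.45, 16.15 and 14.04 in control, 8.88, 8.36 and 8.88 in oxazolone and 9.82, 9.54 and 11.22 in urushiol. It fell, with differences of -6.51 ± 0.62 and -5.02 ± 0.62 (limma adjusted p = 0.00163 and 0.00371). Genes of other tissue fell on the same arrays: 14 and 13 of 14 muscle genes, 5 and 4 of 7 adipocyte genes, and 4 and 3 of 7 fibroblast genes (medians -1.11 and -0.83; 3 and 1 falls without control array 3). Fibroblasts also make C7, C4b and Gas6, and the part of these cells in the values of those genes was not tested. Masp1, a protease of the lectin pathway, rose by 1.42 ± 0.27 and 1.32 ± 0.27 (limma adjusted p = 0.0161 and 0.0195). Those calls were lost without control array 1, oxazolone array 1 or oxazolone array 3 (up to 0.0598) and without control array 1 or 2 (up to 0.0664). C4b fell in oxazolone (difference -1.38 ± 0.36) and C2 in urushiol (-0.72 ± 0.20), both next in line after C1q in the classical pathway, with limma adjusted p values of 0.0414 and 0.0475 that were lost without any of 7 arrays (up to 0.116 and 0.15). C1ra, the protease bound to C1q, differed by -0.57 ± 0.26 and -0.52 ± 0.26 and did not pass.

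Several membrane regulators that stop complement on host cells fell. Cd55, which speeds the decay of C3 convertases, read 14.86, 14.69 and 14.09 in control, 12.97, 12.35 and 12.26 in oxazolone and 12.97, 12.76 and 12.81 in urushiol. It fell, with differences of -2.02 ± 0.25 and -1.70 ± 0.25 (limma adjusted p = 0.0038 and 0.00645). Cd59a, which blocks the membrane attack complex, fell, with differences of -2.24 ± 0.38 and -2.14 ± 0.38 (limma adjusted p = 0.0118 and 0.013, the latter up to 0.0509 without control array 1 or urushiol array 1). Their copies Cd55b and Cd59b fell too, with differences of -1.39 ± 0.19 and -0.84 ± 0.10 in oxazolone and -1.18 ± 0.19 and -0.81 ± 0.10 in urushiol. Probes may not tell such copies apart. Not every regulator fell: Cr1l, of the same list, did not pass. It read 10.61 to 10.93 in control, 10.73 to 11.11 in oxazolone and 10.9 to 11.17 in urushiol. Among controls, Cd55 and Cd59a were lowest on array 3 (14.09 and 10.09), the array with the lowest muscle mean. The part of other tissue in the values of these regulators was not tested. Calr, a chaperone that binds C1q at the surface of dying cells, rose in urushiol by 1.16 ± 0.22 (limma adjusted p = 0.0159), a call lost without any of 4 arrays (up to 0.0575). In oxazolone Itgb2, a chain of complement receptors, and Lair1, an inhibitory receptor for C1q and collagen, rose by 0.50 ± 0.12 and 0.83 ± 0.16, named here to complete the count. Of 21 measured regulators and receptors, 2 rose and 4 fell in oxazolone (median 0.07) and 1 rose and 4 fell in urushiol (median 0.20). The anaphylatoxin receptors C3ar1 and C5ar1 did not pass, with differences of 1.36 ± 0.46 and 0.38 ± 0.33 in oxazolone and 1.46 ± 0.46 and 0.48 ± 0.33 in urushiol. Without control array 3 the falls were 7 and 6 in number, while falls over all genes went from 2085 to 3270 and from 1939 to 3089. Of 25 relatives that share the C1q fold, 0 rose and 2 fell in either comparison. These were the adipocyte hormone Adipoq (-1.73 ± 0.24 and -1.82 ± 0.24) and C1ql3, a secreted protein best known at synapses (-0.37 ± 0.08 and -0.33 ± 0.08). The calls of C1ql3 were lost without any of 3 and 7 arrays. Without control array 3 the falls in this family numbered 4 and 3, beside the larger all-gene counts of that setting.

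Among 18 other scavenger and lectin receptors, 4 rose and 3 fell in oxazolone (median 0.06) and 4 rose and 2 fell in urushiol (median 0.05). Clec7a, the beta-glucan receptor dectin-1 of myeloid cells, went from 6.69, 6.97 and 7.11 in control to 13.28, 13.65 and 12.95 in oxazolone and 12.71, 12.68 and 11.71 in urushiol. Its rises of 6.37 ± 0.30 and 5.44 ± 0.30 had adjusted p values of 0.000189 and 0.000324 in limma. Msr1, the class A scavenger receptor of macrophages, rose by 2.19 ± 0.11 and 1.49 ± 0.11 (limma adjusted p = 0.000239 and 0.000773), from 6.69 to 6.88 in control to 8.83 to 9.08 in oxazolone and 8.17 to 8.51 in urushiol. Olr1, a receptor for oxidised lipoproteins, rose by 3.47 ± 0.35 and 1.83 ± 0.35 (limma adjusted p = 0.00197 and 0.0158, the latter lost without any of 4 arrays, up to 0.061). Cd36, a fatty acid and lipoprotein receptor that fat and muscle also make, fell, with differences of -1.54 ± 0.37 and -1.72 ± 0.37, calls lost without any of 4 arrays in either comparison (up to 0.106 and 0.0809).

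Genes of classical activation rose in part. Of 13 genes of this state, the one induced by interferon-gamma and microbial products, 10 rose and 0 fell in oxazolone (median 0.96), and 4 rose and 0 fell in urushiol (median 0.33). Il1b, the inflammatory cytokine, rose by 8.11 ± 0.39 and 7.77 ± 0.39, and Acod1, which makes itaconate, by 6.41 ± 0.33 and 5.67 ± 0.33. Ptgs2, the inducible prostaglandin synthase that keratinocytes also make, rose by 6.32 ± 0.69 and 6.59 ± 0.69. Neutrophil and keratinocyte means were higher on the same arrays, as given above. The part of those cells in the values of Il1b, Acod1, Ptgs2 and Clec7a was not tested. Irf1, an interferon-induced transcription factor, read 7.29, 7.38 and 7.11 in control, 10.82, 10.34 and 12.22 in oxazolone and 7.37, 6.87 and 6.85 in urushiol. It rose in oxazolone by 3.87 ± 0.44 (limma adjusted p = 0.00305) and differed in urushiol by -0.23 ± 0.44. The difference between allergens, -4.10 ± 0.44, had an adjusted p of 0.0767 in limma. The list's array means were 6.30 to 6.58 in control, 8.76 to 9.20 in oxazolone and 8.21 to 8.53 in urushiol, and genes of T cells, which make interferon-gamma, averaged 5.96 to 6.01, 6.11 to 7.17 and 5.92 to 6.14. The T cell genes did not move as one. Of 10 measured, 3 rose and 1 fell in oxazolone, and 2 rose and 2 fell in urushiol. Group means in control, oxazolone and urushiol were 7.44, 6.34 and 5.57 for Cd3e and 4.70, 6.72 and 4.97 for Cd8a. The T cell mean was highest on oxazolone array 3, where Fcgr4, Trim21 and Irf1 were also highest. The part of T cells in those values was not tested.

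Of 14 genes of alternative activation, the state induced by IL-4 and IL-13, 5 rose and 2 fell in oxazolone and 2 rose and 2 fell in urushiol (medians 0.02 and 0.03). Arg1, an arginase used to mark repair-type macrophages, read 8.15, 8.24 and 8.14 in control, 12.87, 10.46 and 12.10 in oxazolone and 13.39, 12.68 and 12.20 in urushiol. It rose by 3.63 ± 0.59 and 4.58 ± 0.59 (limma adjusted p = 0.0101 and 0.00436). The part of neutrophils and keratinocytes in its values was not tested. Il4ra, the IL-4 receptor chain that many cells carry, rose by 4.06 ± 0.29 and 3.23 ± 0.29. Mgl2, a lectin of dermal macrophages and dendritic cells, fell, with differences of -1.78 ± 0.22 and -1.53 ± 0.22 (limma adjusted p = 0.00399 and 0.00637), with 9.93 to 10.15 in control and 7.87 to 8.72 on the allergen arrays. Retnla, a secreted product of the IL-4 response, fell, with differences of -4.35 ± 0.90 and -3.96 ± 0.90, calls lost without any of 4 and 6 arrays (up to 0.0756 and 0.0962). Langerhans and dendritic cell markers gave 0 rises in either comparison and 2 and 3 falls among 12. Without control array 3 they gave 2 rises in oxazolone and 1 in urushiol, where calls over all genes were also more numerous.

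**Figure D4:**
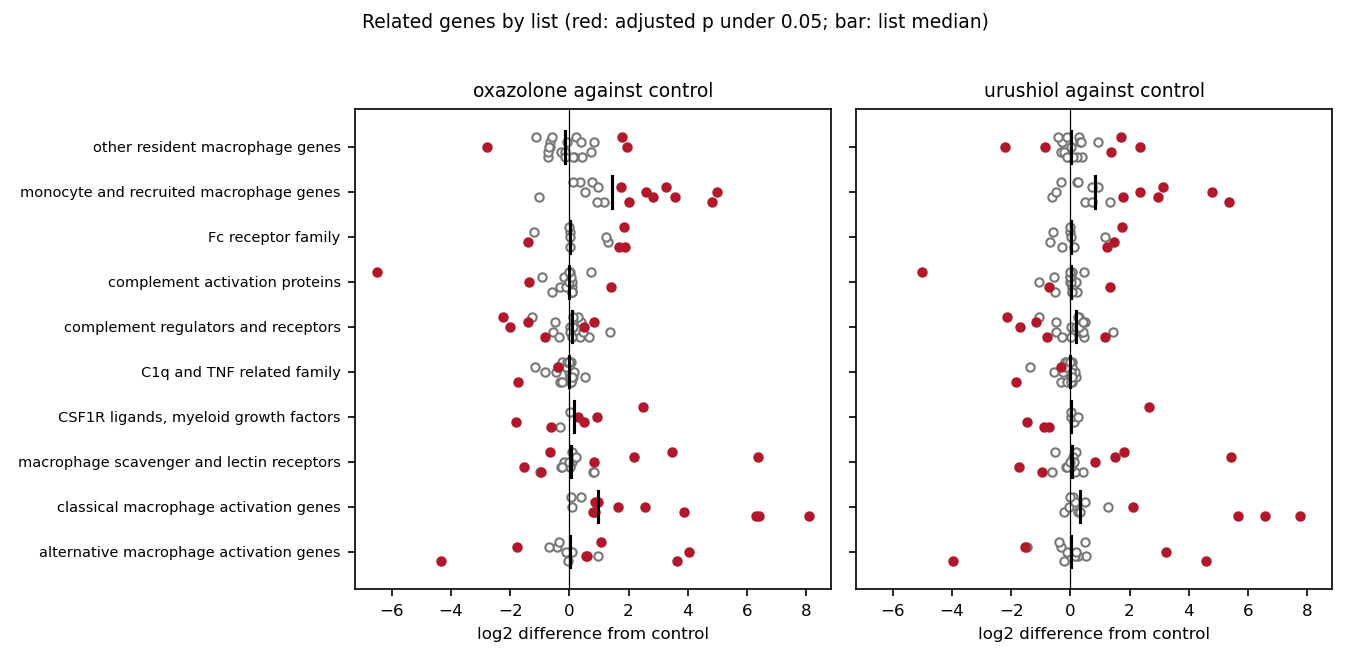
Log2 differences from control (horizontal axes) of the measured genes of 10 lists (rows), in oxazolone and urushiol, with red points for an adjusted p below 0.05 in limma and a bar at each list's median. The bars of the monocyte list (1.44 and 0.84) and of classical activation (0.96 and 0.33) lie to the right, and the other bars lie between -0.16 and 0.20.

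Genes whose values ran closest to a member over the 9 arrays were taken by the root mean square difference of centred log2 values, among 4589 genes with an SD of at least 0.5. This is a description of 9 arrays that share groups and tissue, with no test. Closest to Fcgr1 were Inhba (0.209), Mpeg1 (0.217), Upp1 (0.217), Rgs16 (0.229) and Msr1 (0.238), against an SD of 0.958 for Fcgr1 itself. Mpeg1, the pore-forming protein perforin-2 of macrophages, read 7.88, 7.79 and 7.23 in control, 10.34, 9.51 and 10.16 in oxazolone and 8.81, 8.78 and 8.72 in urushiol, in the same 3 bands. Closest to Fcgr4 were Mlkl (0.232), Icos (0.395), Slfn1 (0.406), Trim30a (0.426) and Slfn2 (0.427), where Fcgr4 had an SD of 1.71. Mlkl, the effector of necroptosis, read 7.20, 7.39 and 7.46, then 10.65, 9.65 and 12.05, then 9.04, 8.83 and 8.83, with the same peak on oxazolone array 3. Icos, a costimulator of activated T cells, peaked there too, at 10.33.

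Closest to the C1q mean were Tlr7 (0.175), Tpsb2 (0.263), Antxr2 (0.264), Tmem269 (0.305) and Hacd4 (0.309). Tlr7, the endosomal sensor of single-stranded RNA, read 7.84, 8.07 and 7.82 in control, 9.08, 7.44 and 8.29 in oxazolone and 8.78, 8.38 and 8.92 in urushiol, so it too was lowest of its group on array 2 of either allergen. Among the candidates, Adgre1 had Hacd4 (0.222), Ptafr (0.263) and Tlr7 (0.329) nearest, followed by the predicted genes Gm7741 (0.336) and Gm13870 (0.343). The SD limit of 0.5 shut out genes that varied as little as Adgre1 or the C1q mean. Pf4, of the resident macrophage list, was shut out and ran closer to Adgre1 than Hacd4 did. It read 8.74, 8.78 and 8.55 in control, 9.34, 8.23 and 8.25 in oxazolone and 9.65, 8.6 and 8.84 in urushiol. Nearest to Mrc1 were Alox5ap (0.197), Hmox1 (0.217), Gm11556 (0.22), Cd84 (0.221) and Gm14270 (0.225). Hmox1, the haem-degrading enzyme, rose by 0.84 ± 0.20 in oxazolone and 1.05 ± 0.20 in urushiol (limma adjusted p = 0.0309 and 0.0153). Nearest to Cd163 were Gm9696, Lgi2, Lrrc28, Fhl5 and Tuba4a, at 0.457 to 0.501, against its SD of 0.792. The SD was 0.459 for the C1q mean, 0.419 for Adgre1 and 0.585 for Mrc1, so distances are not compared between patterns.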

How the data were processed

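Whole-skin RNA was measured on 9 Affymetrix mouse arrays, grouped by title. The authors deposited log2 values per transcript cluster; per the submitters' processing notes, Affymetrix Expression Console 1.4, RMA and the Transcriptome Analysis Console were used, with no role or order. No source used here gives the genome build. Of 72688 features, 6732 array controls were left out. The annotation gave 30604 of 65956 clusters 1 symbol, and the cluster with the highest mean over 9 arrays stood for each of 30142 genes. The file holds no detection calls, and dim genes were kept. Groups were compared with the lmFit and eBayes functions of limma 3.58.1 (R 4.3.3), two-sided, in 1 fit of 9 arrays. The code was tested on simulated data. Array number limits the precision: the median standard error was 0.113 log2 units.

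The members, lists, tests and motifs were chosen with earlier results of these data known. Named were all members, up to 4 called genes per list and comparison by size, and 5 nearest patterns each for the C1q mean, Adgre1, Mrc1, Cd163, Fcgr1 and Fcgr4. Timd4, Itgb2, Lair1, Ly6c2, Ccr2, C1ra, C3ar1, C5ar1, Cr1l, Pf4, S100a8, S100a9 and the urushiol values of Cd59b and Ms4a4c and the oxazolone value of Cd14 lie outside that rule, and they were named after their values were seen. Deviations from group means correlated at 0.201, 0.197 and 0.124 between oxazolone and urushiol arrays of one number, all above 0.1. These arrays were therefore treated as paired in an alternative fit, although the labels name no pairing. Controls were not paired. The alternatives tried were cluster means, leaving out dim genes, quantile renormalisation, median centring, trended or robust prior variance, array weights, a replicate block, 2 groups alone and leaving out each array.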

Additional observations from a re-analysis of the deposited data

Results flagged for a closer look

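Trim21, the cytosolic antibody receptor, was the 1 result set apart for a closer look: all 3 oxazolone arrays lay above the control arrays and all 3 urushiol arrays below them. The rule asked for this very pattern among members and named list genes, and the share of all genes showing it was not counted. In urushiol the gap was small, with the highest array at 6.38 and the lowest control at 6.43, and Trim21 was not called there. The difference, urushiol minus oxazolone, was -2.16 ± 0.33 log2 units and did not pass limma's test of that difference (adjusted p = 0.14).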

How the results depend on the processing

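Of 30 member differences, 6 changed their side of the threshold under at least 1 of 18 alternatives (19 between the allergens), and 0 reversed a called value. Members called lower in oxazolone numbered 1 with array weights and 0 to 1 when each array was left out, against 0. Members called higher in oxazolone stayed at 2 to 3 without single arrays. Members called higher in urushiol, 2 in the report, numbered 1 after quantile renormalisation, 4 with only the 2 groups fitted and 1 to 3 without single arrays. Between the allergens, members called lower numbered 1 with the filter on dim genes, 1 with array weights and 0 to 1 without single arrays, in each case Fcgr1. Genes of the 10 lists called lower, 17 in either comparison with control, numbered 10 (oxazolone) and 11 (urushiol) with only the 2 groups fitted and 10 to 25 and 9 to 21 without single arrays. Those called higher, 39 and 25, numbered 28 to 36 and 18 to 29 without single arrays, 26 and 26 with only the 2 groups fitted and 45 and 30 with the replicate block. Between the allergens, list genes called lower numbered 1 with the filter, 4 with array weights and 0 to 3 without single arrays. Over all genes, array weights gave 4557 higher and 3131 lower in oxazolone and 4932 and 3203 in urushiol, and only 2 groups gave 1262 and 936, and 1449 and 875, so calls near the threshold depend on these settings. Without single arrays these counts ran from 1102 to 4749 and 974 to 3270 in oxazolone and from 1326 to 4566 and 863 to 3089 in urushiol. Cd68 in urushiol passed with the filter on dim genes (limma adjusted p = 0.0424) and with 2 groups only (0.0407), as did Fcgr4 in urushiol with 2 groups only (0.0303). The labels do not pair controls by number, but the 9-array fit with the replicate block treated them so. In that fit Cd68 in urushiol passed (limma adjusted p = 0.0277), with 3 members called higher in urushiol and 2 in oxazolone. The replicate block left 0 members called between the allergens, in the fit of 9 arrays and in that of the paired oxazolone and urushiol arrays alone, and changed no other member call. Quantile renormalisation moved the C1q mean differences to 0.10 (oxazolone), 0.44 (urushiol) and 0.34 (between allergens), each by less than the spread between replicates. It also moved all-gene calls in oxazolone from 2904 higher and 2085 lower to 2127 and 2937. Signal above background was not given, so the low Fcgr4 control values may be bounds.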
